A study of Mus with 12 samples.

Results

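Antisense long noncoding RNAs (lncRNAs) of the mouse uterus were examined together with the protein-coding genes on the opposite strand. A table row stands for 1 assembled gene or for several merged genes, and 3069 of the 87235 rows of the implantation-stage table were antisense lncRNAs by the rule used. The rule took rows that hold an Ensembl transcript and the transcript type antisense, without the type protein_coding, and left out Hand2os1, Dnm3os, Airn, Kcnq1ot1 and Nespas by name, which removed 4 rows. No expression value entered the choice. A protein-coding row overlapped 2819 of the antisense rows on the opposite strand and is called the sense partner, with the largest overlap taken where there were several. The other 250 had none. The 2819 pairs used 2441 different partners, and 675 antisense rows shared their partner with another antisense row, so that pairs are not all independent.

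The uteri came from pregnant ICR mice mated at 1 age, so that animals of later embryonic days were older, with 3 mice in each of 4 groups and 1 library per mouse. ICR is an outbred stock, and the animals received no treatment. Whole uteri were collected on embryonic days E0.5 and E4.5 for the implantation stage and, for the labor stage, on E15.5 and E18.5. The comparison within each stage asks which transcripts differ between days on which progesterone levels differ. Fold changes are given as E0.5 over E4.5 and as E18.5 over E15.5, on a log2 scale, so that a positive value means higher at E0.5 or at E18.5.

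Antisense lncRNAs are transcribed from the strand opposite to a gene, often starting near its promoter or within its introns. Some act in cis, by altering transcription or chromatin at the locus that they overlap, and some pair with the sense transcript and change its splicing, stability or translation. Many are retained in the nucleus and are degraded there by the RNA exosome, and most are present at far lower levels than the gene that they overlap. In the uterus, antisense transcripts of Hox clusters lie beside genes that pattern the reproductive tract and are needed by the stroma for implantation.

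The implantation libraries held 58020989 to 70906881 counts, and antisense rows took 0.884% to 1.03% of them. Labor values were FPKM, so the number of counts behind each is unknown. E4.5 replicate 3 stood apart from the other implantation libraries. Its 5 ovary markers summed to 685 FPKM (fragment counts scaled to transcript length and library depth) against 2.19 to 3.78 in the other 5 libraries, its 2 oviduct markers to 79.4 against 3.63 to 14.8, and its 5 smooth muscle markers to 184 against 626 to 1050. Epithelial markers (5 genes) summed to 215 to 255 at E0.5 and 72.2 to 150 at E4.5, and stromal markers (5 genes) to 92.8 to 154 and 33.3 to 122, so uterine tissue was present in every library. The part of tissue makeup in the results was not tested, and fewer cells of a type cannot be told apart from less RNA per cell in whole tissue. Where leaving out E4.5 replicate 3 changed whether a row with a fold change given here met the criterion, this is said beside the row. Whether reads were counted by strand is not given in the sources used here, so reads of an antisense row and of its partner cannot be told apart where they overlap.

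Antisense transcripts were scarce beside their partners. A read was counted in at least 1 library for 2556 of the 3069 rows and in none for 513. The 6 implantation libraries averaged 0.1 FPKM or more in 1942 rows, which entered the test, and 1 FPKM or more in 698. Over the 1819 pairs with both rows tested, the median level was 0.693 FPKM for the antisense row and 3.38 FPKM for the partner, and the antisense row was the more abundant of the pair in 123. The overlap had a median of 3536 bases. The antisense row lay inside the partner in 1641 pairs. In 656 pairs the 5' ends overlapped (head-to-head), in 430 the 3' ends overlapped (tail-to-tail), and in 92 the partner lay inside the antisense row.

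Of the 5 most abundant antisense transcripts, 1 met the criterion described below between E0.5 and E4.5. Gm16185 (chr9:97085227-97089493, plus strand, GRCm38) lies inside Slc25a36, which encodes a mitochondrial carrier of pyrimidine nucleotides, and had the highest mean of all antisense rows, 15.1 FPKM. It stood at 16.1, 14.1 and 14 FPKM in the E0.5 libraries and at 14, 16.6 and 15.6 FPKM in the E4.5 libraries. These ranges overlapped, and the log2 fold change was -0.05 ± 0.14 (SE; edgeR adjusted p = 0.882). Gm28192 lies inside Csnk1d, a casein kinase gene of the circadian clock, and exceeded its partner in all 6 libraries, with ratios of 2.30 to 3.19. Its levels of 7.73, 8.23 and 8.96 FPKM at E0.5 against 7.24, 9.19 and 7.73 FPKM at E4.5 overlapped as well. 4930579G18Rik, inside Acin1, whose product takes part in splicing, likewise did not meet the criterion, at -0.03 ± 0.22. Gm20632 (merged with Gm47311) varied most among the 5 most abundant, from 3.72 to 22.3 FPKM at E4.5, and its highest value was in E4.5 replicate 3.

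Gm26632 was the only one of these 5 past the criterion that the study used, a log2 fold change of 1 or more in either direction together with p under 0.05 before adjustment. It lies inside a row that merges Rbpms, an RNA-binding protein gene of smooth muscle, with Gm26632 itself and Gm26978. Levels of 9.74, 13 and 12.6 FPKM at E0.5 lay above those of 6.56, 6.93 and 4.09 FPKM at E4.5. The log2 fold change was 1.01 ± 0.27 (edgeR adjusted p = 0.129), and it was 0.79 ± 0.18 without E4.5 replicate 3, under the size that the criterion asks for.

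Of the 1942 antisense rows tested between E0.5 and E4.5, 191 met the criterion (9.84%), 102 higher and 89 lower at E0.5. The criterion was met by 12.2% of all 59732 rows tested, with 6.37% higher and 5.82% lower at E0.5, so the share among antisense rows was not above that of the table as a whole. It was met by 14.6% of protein-coding rows and by 11.6% of other known lncRNA rows. Among antisense rows with at least 1 FPKM, 81 of 698 met it (11.6%). After Benjamini-Hochberg adjustment over all rows, edgeR kept 10 antisense rows at an adjusted p under 0.05, 8 higher and 2 lower at E0.5, against 1.22% of all rows (0.763% higher, 0.459% lower). The E0.5 and E4.5 ranges did not overlap in 244 antisense rows that were higher and 211 that were lower at E0.5, and 25.2% of all rows had no overlap. The median log2 fold change was -0.01 for antisense rows, for all rows, and for both with rows that lacked a count in a group set at their bound.

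Sense partners were near the share of protein-coding rows. Of 2105 tested, 325 met the criterion (15.4%), 146 higher and 179 lower at E0.5, and 61 passed the adjusted p, with a median log2 fold change of -0.11. Without E4.5 replicate 3, 400 partners met it (19%), 219 of them higher at E0.5, so that more were higher than lower, and their median was 0.00. The criterion was then met by 202 antisense rows, 118 higher and 84 lower, and 142 of these were among the 191. The adjusted p was passed by 73 antisense rows (3.76%) and 294 partners (14%), beside 6.08% of all rows, and the criterion by 14.1% of all rows.

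All 10 antisense rows that passed the adjusted p had E0.5 and E4.5 ranges that did not overlap, beside 25.2% of all rows. The same libraries gave the p, so this is no separate support. Of the 10, 8 lay inside their partner, as did 1139 of the 1942 antisense rows tested. The lowest p belonged to Gm16151 (chr1:38305530-38311930, plus strand), which lies inside Aff3, a gene of the AF4/FMR2 family of nuclear factors. Gm16151 stood at 0.349, 0.366 and 0.459 FPKM at E0.5 and at 2.33, 2.44 and 2.26 FPKM at E4.5. It was lower in every E0.5 library, with a log2 fold change of -2.57 ± 0.22 (edgeR adjusted p = 0.0131). Aff3 moved with it, at -2.47 ± 0.28 (edgeR adjusted p = 0.0215). A neighbouring antisense row inside the same gene, Gm16152, stood at 0.426, 0.367 and 0.148 FPKM at E0.5 and at 1.79, 1.94 and 1.59 FPKM at E4.5. Its log2 fold change was -2.47 ± 0.45 (edgeR adjusted p = 0.0579), and the 2 antisense rows are not independent of each other.

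4930579H20Rik (chr10:27389866-27397257, plus strand) was the other row that was lower at E0.5 by the adjusted p. It lies inside Lama2, which encodes the laminin alpha 2 chain of basement membranes. Its level was 0.443, 0.544 and 0.431 FPKM at E0.5 against 1.65, 2.02 and 1.29 FPKM at E4.5, for a log2 fold change of -1.79 ± 0.27 (edgeR adjusted p = 0.0403). Lama2 had a log2 fold change of -1.28 ± 0.27 and met the criterion without passing the adjusted p (edgeR adjusted p = 0.0791).

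Gm48159 (chr10:29534717-29614471, plus strand) is head-to-head with Rspo3, the gene of a secreted R-spondin that enhances Wnt signalling, in a row merged with Gm20276. It was detected at 2.66, 2.14 and 3.11 FPKM at E0.5 and at 0.164, 0.227 and 0.0780 FPKM at E4.5. The log2 fold change of 4.01 ± 0.47 was the largest of the 10 (edgeR adjusted p = 0.0245). The Rspo3 row stood at 13.7, 13.6 and 18.3 FPKM at E0.5 against 1.61, 2.25 and 0.738 FPKM at E4.5, for a log2 fold change of 3.31 ± 0.43 (edgeR adjusted p = 0.0285). Gm34006 (chr10:42861382-42865009, minus strand) lies inside Scml4, a gene of the polycomb group family. Its level was 1.69, 1.52 and 1.38 FPKM at E0.5 against 0.246, 0.281 and 0.183 FPKM at E4.5, for a log2 fold change of 2.68 ± 0.32 (edgeR adjusted p = 0.0245). Scml4 changed in the same direction, by 3.23 ± 0.30 (edgeR adjusted p = 0.0157).

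Antisense rows of 2 ion transport genes were also higher at E0.5. Gm14092 (chr2:145545750-145558117, minus strand) lies inside Slc24a3, a potassium-dependent sodium and calcium exchanger gene, and stood at 4.72, 3.77 and 5.64 FPKM at E0.5 against 1.07, 1.11 and 0.454 FPKM at E4.5. The log2 fold changes were 2.42 ± 0.39 for Gm14092 (edgeR adjusted p = 0.0469) and 2.23 ± 0.28 for Slc24a3 (edgeR adjusted p = 0.0263). A430027H14Rik (chr1:189343431-189344897, plus strand) lies inside Kcnk2, which encodes a stretch-activated potassium channel. It stood at 0.643, 0.875 and 1.02 FPKM at E0.5 and at 0.0302, 0.0935 and 0.0892 FPKM at E4.5, for a log2 fold change of 3.51 ± 0.58 (edgeR adjusted p = 0.0497). Kcnk2 itself was at 0.106 and 0.280 FPKM in E4.5 replicates 1 and 2 and at 2.27 FPKM in replicate 3, and did not meet the criterion (2.39 ± 1.02, edgeR adjusted p = 0.3). Without replicate 3 its log2 fold change was 4.52 ± 0.48 (edgeR adjusted p = 0.00458).

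Smaller differences in the same direction were found at Atxn1, Dennd2d and Mtus1. 4930453C13Rik, inside Atxn1, the gene of a transcriptional corepressor, stood at 8.97, 8.10 and 8.31 FPKM at E0.5 and at 4.38, 4.07 and 4.27 FPKM at E4.5. Its log2 fold change of 1.0 ± 0.15 (edgeR adjusted p = 0.0367) was at the limit of the criterion and became 0.98 without E4.5 replicate 3. 2010016I18Rik is head-to-head with Dennd2d, an activator of Rab proteins in membrane traffic. Levels of 2.73, 2.40 and 2.81 FPKM at E0.5 against 0.985, 0.707 and 0.65 FPKM at E4.5 gave a log2 fold change of 1.75 ± 0.27 (edgeR adjusted p = 0.0405), beside 1.5 ± 0.18 for Dennd2d (edgeR adjusted p = 0.0249). B430010I23Rik, inside Mtus1, a microtubule-associated tumour suppressor gene, stood at 3.96, 3.51 and 3.13 FPKM at E0.5 and at 1.52, 1.27 and 1.07 FPKM at E4.5. It differed by 1.46 ± 0.24 (edgeR adjusted p = 0.0497), whereas Mtus1 did not meet the criterion (1.02 ± 0.48, edgeR adjusted p = 0.336).

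Tnfsf13os (chr11:69682076-69691141, plus strand) had the partner row with the smallest difference among the 10. It stood at 2.19, 2.31 and 2.43 FPKM at E0.5 and at 0.173, 0.188 and 0.381 FPKM at E4.5. Every E0.5 library was far above every E4.5 library, with a log2 fold change of 3.22 ± 0.39 (edgeR adjusted p = 0.0254). The partner row merges Tnfsf13 and Tnfsf12, cytokine genes of the tumour necrosis factor family, with Cd68, Eif4a1, Senp3 and other genes. That row stood at 11.2, 11.6 and 13.5 FPKM at E0.5 and at 12.2, 12.1 and 10.3 FPKM at E4.5, and these ranges overlapped (0.08 ± 0.17, edgeR adjusted p = 0.852). Because several genes share the row, the value does not give the level of Tnfsf13 alone. Of the 10 partners, 5 passed the adjusted p and 6 met the criterion.

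**Figure D1:**
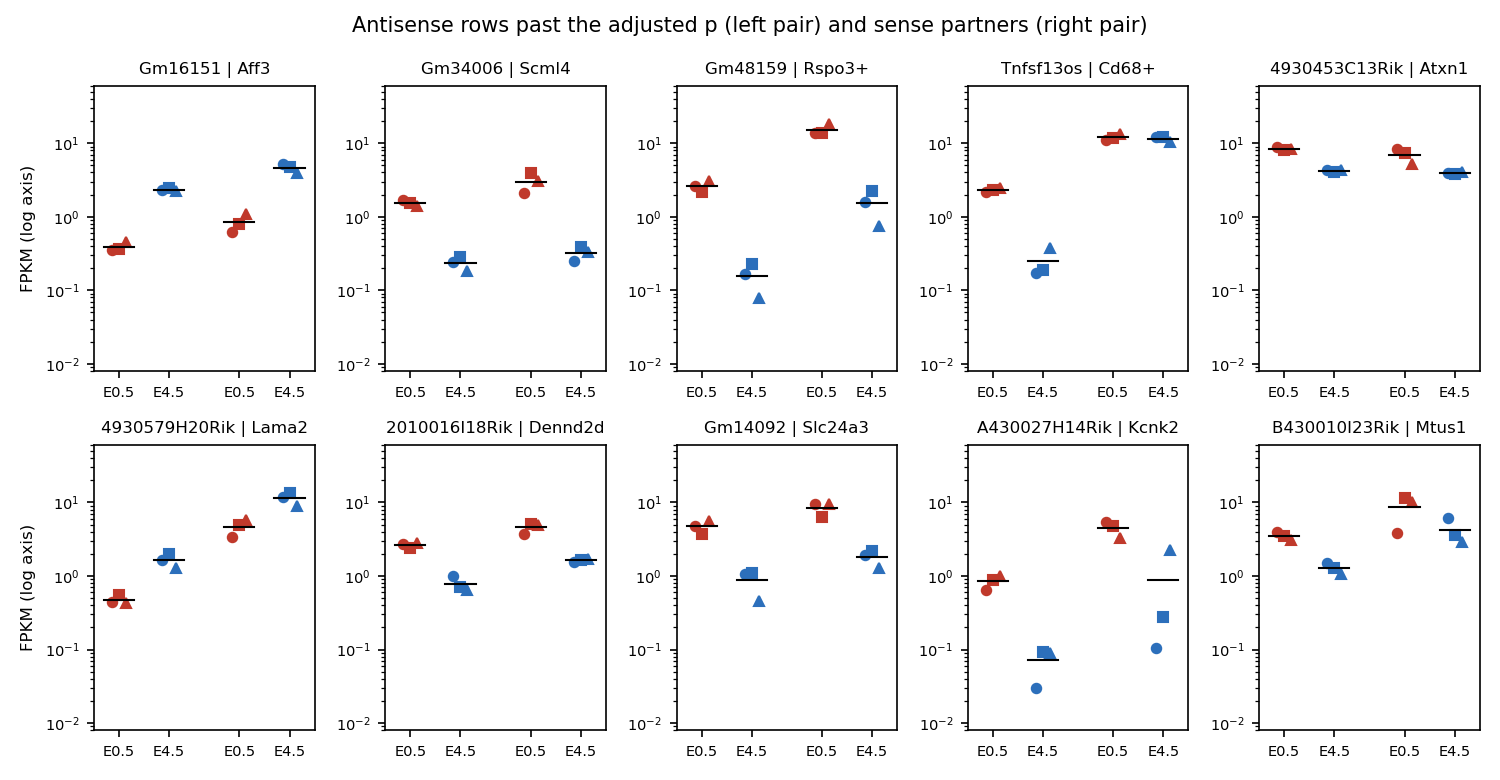
FPKM on a log axis in each E0.5 library (red) and E4.5 library (blue) for the 10 antisense rows that passed the adjusted p (left pair of columns in each panel) and for their sense partners (right pair). Circles, squares and triangles are replicates 1, 2 and 3, bars are means, and a plus sign marks a merged row. The antisense ranges do not overlap in any of the 10 panels, and the Tnfsf13os partner is level at 10.3 to 13.5 FPKM.

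These 10 calls depended on which libraries entered the fit. When each of the 6 libraries was left out in turn, all 10 passed the adjusted p without E4.5 replicate 3, and 9 met the criterion there. With any other library left out, Gm16151 passed in 1 fit and the other 9 in none. The same loss was seen over the whole table, where 730 of 59732 rows passed with all libraries. Without E0.5 replicates 1, 2 and 3 in turn, 23, 0 and 36 rows passed, and without E4.5 replicate 1, 46 did. Fewer than the 730 also passed without E4.5 replicate 2, whereas 3629 passed without E4.5 replicate 3. Directions of the 10 were kept throughout. Over all alternatives the log2 fold changes were 3.45 to 4.32 for Gm48159 and 2.84 to 3.63 for Tnfsf13os.

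The largest differences by size among rows with at least 1 FPKM, the criterion met and no overlap included several that missed the adjusted p. Dlx6os1 (chr6:6820189-6861591, minus strand) is an antisense transcript of a Dlx homeobox locus and had no protein-coding row on the other strand in this table. It stood at 9.12, 9.92 and 9.77 FPKM at E0.5 and at 0.520, 0.831 and 0.0757 FPKM at E4.5. The log2 fold change was 4.33 ± 0.80 (edgeR adjusted p = 0.0610), and 3.82 ± 0.24 without E4.5 replicate 3 (edgeR adjusted p = 0.00115). Plet1os is head-to-head with Plet1, an epithelial cell surface protein gene. It was detected at 4.29, 4.08 and 4.41 FPKM at E0.5 and at 0.166, 0.446 and 1.60 FPKM at E4.5, for a log2 fold change of 2.57 ± 0.74 (edgeR adjusted p = 0.151). Plet1 differed by 3.07 ± 0.61, and without E4.5 replicate 3 the values were 3.80 ± 0.42 and 3.96 ± 0.35. Gm19461, inside Plekha6, stood at 1.86 to 2.12 FPKM at E0.5 and 0.0931 to 0.485 FPKM at E4.5, for a log2 fold change of 2.75 ± 0.54 beside 2.90 ± 0.25 for Plekha6.

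In the other direction, Efhd1os (chr1:87264476-87267035, minus strand) lies inside Efhd1, which encodes a calcium-binding protein of mitochondria. Efhd1os stood at 0.330, 0.0198 and 0.0675 FPKM at E0.5 and at 4.73, 4.42 and 2.70 FPKM at E4.5. Its log2 fold change was -4.80 ± 0.96 (edgeR adjusted p = 0.0711), and -6.35 without E0.5 replicate 1, the highest library of that day. Efhd1 stood at 0.547, 0.456 and 0.329 FPKM at E0.5 and at 50.6, 42.8 and 50.3 FPKM at E4.5, for a log2 fold change of -6.74 ± 0.28 (edgeR adjusted p = 0.00496). Runx2os2 lies inside Runx2, a transcription factor gene of bone formation, and stood at 0.515, 0.789 and 0.911 FPKM at E0.5 and at 3.31, 3.96 and 16.8 FPKM at E4.5. The highest value was again in E4.5 replicate 3, where Runx2 was at 19.9 FPKM. The log2 fold changes were -3.40 ± 0.68 for Runx2os2 and -3.47 ± 0.78 for Runx2, and -2.31 ± 0.27 and -2.04 ± 0.20 without that library (edgeR adjusted p = 0.00653 and 0.00340).

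Gm22146 (merged with Gm49799) lies inside Fkbp5, a co-chaperone gene of steroid receptors, and here too the call depended on single libraries. It stood at 0.287, 0.129 and 0.433 FPKM at E0.5, at 0.545 and 0.617 FPKM in E4.5 replicates 1 and 2, and at 5.51 FPKM in replicate 3. The log2 fold change was -2.92 ± 1.0 with all libraries and -1.04 ± 0.47 without replicate 3, when the criterion was no longer met (edgeR adjusted p = 0.268). Leaving out E0.5 replicate 1 or 2 also ended the call, which was kept in 3 of the 6 fits. Fkbp5 gave -2.66 ± 1.01 with all libraries and -0.88 ± 0.54 without E4.5 replicate 3, when it did not meet the criterion.

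Called antisense rows often had a called partner. In 102 of the 1819 pairs both rows met the criterion in the same direction, 51 higher and 51 lower at E0.5, and in 2 pairs both met it in opposite directions. Only the antisense row met it in 78 pairs, only the partner in 171, and neither in 1466. Thus 57.1% of the called antisense rows had a called partner, against 10.4% of the antisense rows that were not called. The 2 log2 fold changes had the same sign in 72.1% of pairs, with a Spearman correlation of 0.60 across pairs, given as a description because pairs share libraries, partners and, where counting ignored strand, reads. It was 0.67 where the antisense row lay inside the partner, 0.53 for tail-to-tail pairs, 0.45 for head-to-head pairs and 0.39 where the partner lay inside the antisense row. Pairs with both called in the same direction numbered 64 of 1133, 14 of 271, 20 of 374 and 4 of 41 in these classes.

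**Figure D2:**
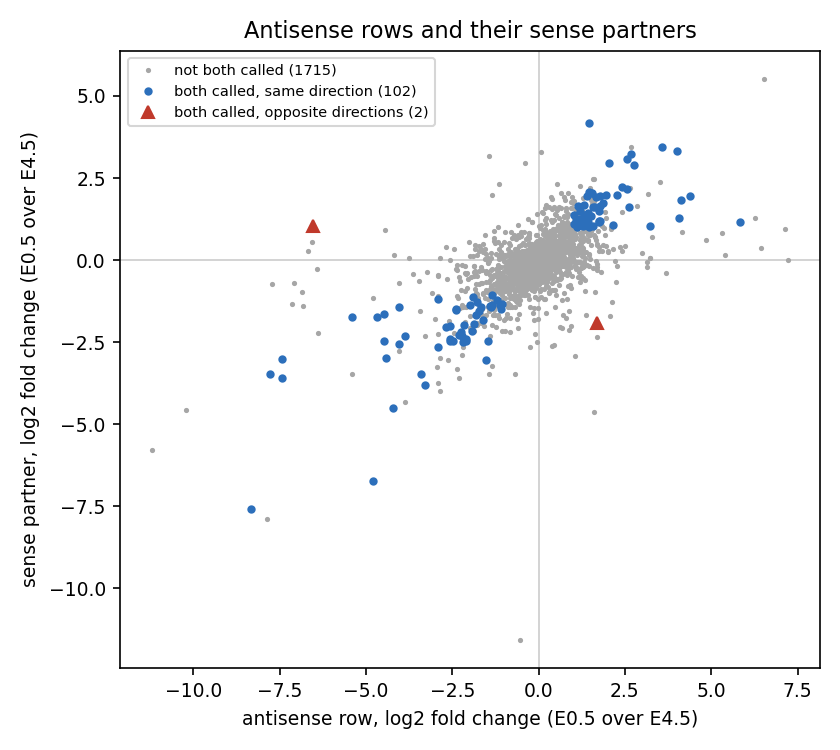
Log2 fold change (E0.5 over E4.5) of the antisense row (x axis) and of its sense partner (y axis) for 1819 pairs with both rows tested. Blue points are the 102 pairs called in the same direction, red triangles the 2 pairs called in opposite directions, and grey points the rest. The signs of the 2 values match in 72.1% of the pairs.

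The share of antisense rows called was also counted by the arrangement of the pair. It was 105 of 1139 (9.22%) for rows inside their partner, 42 of 381 (11%) for head-to-head rows, 29 of 283 (10.2%) for tail-to-tail rows, 7 of 47 (14.9%) for rows that enclose their partner and 8 of 92 (8.70%) for rows without a partner, beside 12.2% of all rows.

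Among pairs called in the same direction, the largest differences were lower at E0.5, and in several no antisense read was counted on that day. Gm10558 lies inside Map2, a neuronal microtubule-associated protein gene. Gm10558 stood at 0.0196, 0.0915 and 0.0293 FPKM at E0.5 and at 1.41, 1.07 and 0.367 FPKM at E4.5, for a log2 fold change of -4.22 ± 0.84, and Map2 differed by -4.51 ± 0.62 (edgeR adjusted p = 0.0321). Gm13441 is head-to-head with Lamc3, the laminin gamma 3 chain gene. It had no count at E0.5 and stood at 0.221, 0.328 and 0.0968 FPKM at E4.5, which makes it at least 21.1-fold lower at E0.5 when the group at 0 is given a floor of 3 counts. Lamc3 was at 0.562 to 0.695 FPKM at E0.5 and 7.03 to 8.44 FPKM at E4.5 (-3.58 ± 0.18, edgeR adjusted p = 0.00505).

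Individual libraries carried other members of this group. Gm36099, inside the serpin gene Serpinb9b, had no count at E0.5 and 122 at E4.5, of which 102 were in replicate 2. It was at least 40.2-fold lower at E0.5, and at least 9.88-fold without that replicate. E4.5 replicate 3 had no count either, so the groups overlapped, and the criterion was met in 1 of the 6 fits that left a library out. Kcnab3os, inside the potassium channel subunit gene Kcnab3, had no count at E0.5 and 83 at E4.5, of which 75 were in replicate 3, so that its bound was 27.4-fold with that library and 3.91-fold without it, where the criterion was not met. The Kcnab3 log2 fold change was likewise -3.47 ± 1.24 with E4.5 replicate 3 and -0.99 ± 0.64 without it.

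Only Gm13713 and 9330121J05Rik met the criterion against the direction of their partner. Gm13713 (chr2:85160778-85193325, plus strand) is tail-to-tail with Lrrc55, an auxiliary subunit gene of large-conductance potassium channels. Its level was 0.600, 0.795 and 0.452 FPKM at E0.5 against 0.159, 0.307 and 0.101 FPKM at E4.5. Lrrc55 was at 0.137, 0.127 and 0.193 FPKM at E0.5 and at 0.971, 0.287 and 0.459 FPKM at E4.5. Neither pair of ranges overlapped, and the log2 fold changes were 1.69 ± 0.66 and -1.93 ± 0.53 (edgeR adjusted p = 0.263 and 0.139). Without E4.5 replicate 3 the antisense value was 1.39 ± 0.72 and no longer met the criterion. 9330121J05Rik is head-to-head with Arhgef26 and varied widely at E4.5, with 2.13, 0 and 1.26 FPKM against 0, 0.00844 and 0.0254 FPKM at E0.5. The ranges overlapped, the log2 fold change was -6.52 ± 2.11 (edgeR adjusted p = 0.192), and that of Arhgef26 was 1.03 ± 0.41, or 0.77 ± 0.38 without E4.5 replicate 3.

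Antisense rows were also grouped by the symbol of the partner, in lists chosen with earlier results of these data known. Of 68 at developmental transcription factor loci, 39 were tested and 10 met the criterion (25.6%, beside 12.2% of all rows), 7 higher and 3 lower at E0.5, with a median log2 fold change of 0.22. None passed the adjusted p in edgeR, where 11 had an unadjusted p under 0.05 (17% of all rows did), while DESeq2 gave 8 past the adjusted p (9.74% of all rows). Among the 10, the partner of Gm20395, Pax2, met the criterion with all libraries, and 6 of 37 partners tested met it in all, with a median of -0.11. Without E4.5 replicate 3, 8 antisense rows met the criterion (20.5%, beside 14.1% of all rows), 5 of them higher at E0.5. The median was then -0.03 for antisense rows and -0.03 for partners. The adjusted p was passed by 5 antisense rows (6.08% of all rows passed it). In that fit the partner of Gm28793, a row of Hoxd9 to Hoxd11, met the criterion too.

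Hoxa11os (chr6:52242652-52250483, plus strand, in a row with further gene models) is head-to-head with Hoxa11, a homeobox gene that the uterine stroma needs for implantation. It stood at 0.947, 1.65 and 1.33 FPKM at E0.5 and at 12.9, 11.1 and 0.680 FPKM at E4.5. E4.5 replicates 1 and 2 were far above every E0.5 library and replicate 3 was below them all. The log2 fold change was -2.66 ± 0.94 with all libraries (edgeR adjusted p = 0.226) and -3.20 ± 0.26 without replicate 3 (edgeR adjusted p = 0.00203). Hoxa11 itself stood at 5.41, 9.27 and 10.1 FPKM at E0.5 and at 1.54, 35.7 and 0.930 FPKM at E4.5. Its 3 E4.5 libraries disagreed by more than the days did, and the log2 fold change of -0.58 ± 1.25 did not meet the criterion. Without E4.5 replicate 2 the direction turned, and Hoxa11 met the criterion at 2.72. The ratio of Hoxa11os to Hoxa11 was 0.132 to 0.178 at E0.5 and 8.39, 0.312 and 0.731 at E4.5.

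At the Hoxb cluster 2 antisense rows lie inside a row that merges Hoxb3 to Hoxb6. Hoxb5os stood at 7.64, 7.22 and 4.82 FPKM at E0.5 and at 0.656, 4.09 and 1.33 FPKM at E4.5, for a log2 fold change of 1.73 ± 0.62 (edgeR adjusted p = 0.233) that was 1.48 ± 0.66 and outside the criterion without E4.5 replicate 3. Gm11536 stood at 6.81, 6.15 and 6.12 FPKM at E0.5 and at 3.23, 3.09 and 1.47 FPKM at E4.5 (1.29 ± 0.32, edgeR adjusted p = 0.118), and was 0.99 without that library. The shared partner row gave 0.88 ± 0.38 and did not meet the criterion. Hoxb3os was at 1.34 FPKM in E0.5 replicate 1 and at 0.192 to 0.327 FPKM in the other 5 libraries, so its ranges overlapped. Gm28793 at the Hoxd9 to Hoxd11 row was lower at E0.5, with 0.119, 0.330 and 0.591 FPKM against 2.80, 2.47 and 0.474 FPKM (-2.37 ± 0.90, edgeR adjusted p = 0.253), and E4.5 replicate 3 was the low library again. Without it Gm28793 gave -2.84 ± 0.74, and the partner row went from -1.09 ± 0.71, outside the criterion, to -1.60 ± 0.19 (edgeR adjusted p = 0.00616). The Gm28793 call held in 2 of the 6 fits that left a library out. Hoxd3os1 was abundant and at 7.91 to 8.48 FPKM in 5 libraries but 3.67 FPKM in E4.5 replicate 3 (0.26 ± 0.34). Hoxaas3 stood at 1.07 to 1.87 FPKM with overlapping ranges (0.24 ± 0.23), and Hoxaas2 and Hotairm1 were too low to be tested at this stage.

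Other tract-patterning loci gave the remaining calls. Emx2os (chr19:59425104-59458638, minus strand) lies at Emx2, a homeobox gene of urogenital development. It stood at 7.68, 10.5 and 5.70 FPKM at E0.5 and at 2.84, 3.41 and 2.80 FPKM at E4.5, for a log2 fold change of 1.42 ± 0.26 (edgeR adjusted p = 0.0578) and 1.34 ± 0.27 without E4.5 replicate 3 (edgeR adjusted p = 0.0346). The partner row, which merges Emx2 with transcripts also named Emx2os, stood at 1.61, 1.69 and 8.04 FPKM at E0.5 and at 4.09, 4.93 and 3.66 FPKM at E4.5 and did not meet the criterion (-0.15 ± 0.63). With a library left out the partner row gave -1.35 to 0.23 and met the criterion in 1 of the 6 fits. In E0.5 replicate 3 the Emx2os row was lowest of its day and the partner row highest. Gm20395, inside Pax2, a urogenital transcription factor gene, differed by 1.32 ± 0.37 beside 1.67 ± 0.49 for Pax2. It stood at 3.24, 2.37 and 3.19 FPKM at E0.5 and at 1.31, 1.57 and 0.634 FPKM at E4.5. Gm37587 is head-to-head with Sox17, a transcription factor gene of uterine epithelium and glands, and stood at 3.12, 2.69 and 2.26 FPKM at E0.5 and at 1.21, 1.06 and 0.882 FPKM at E4.5. The ranges did not overlap (1.36 ± 0.26, edgeR adjusted p = 0.0642), and Sox17 gave 0.66 ± 0.25.

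Gm16141, inside Meis1, whose product binds DNA together with Hox proteins, stood at 7.84, 8.54 and 7.71 FPKM at E0.5 and at 3.63, 3.19 and 1.57 FPKM at E4.5. It differed by 1.52 ± 0.37 (edgeR adjusted p = 0.111), and the merged Meis1 row by 0.91 ± 0.26. Gm20033, head-to-head with Klf3, a zinc finger repressor gene, gave 1.66 ± 0.47 from 0.534 to 0.997 FPKM at E0.5 and 0.149 to 0.378 FPKM at E4.5. A830082K12Rik, head-to-head with Nr2f1, an orphan nuclear receptor gene, was low on both days, at 0.0444 to 0.147 and 0.148 to 0.295 FPKM, with -1.43 ± 0.55, and did not meet the criterion without E4.5 replicate 3. Wt1os and Zeb2os did not meet the criterion, at -0.43 ± 0.34 and -0.39 ± 0.36. The partner row of Wt1os was Gm11060 and not Wt1, and its mean of 0.0785 FPKM was too low to be tested. Six3os1 had no count in any library and Igf2os 11 counts, all in E4.5 replicate 3.

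**Figure D3:**
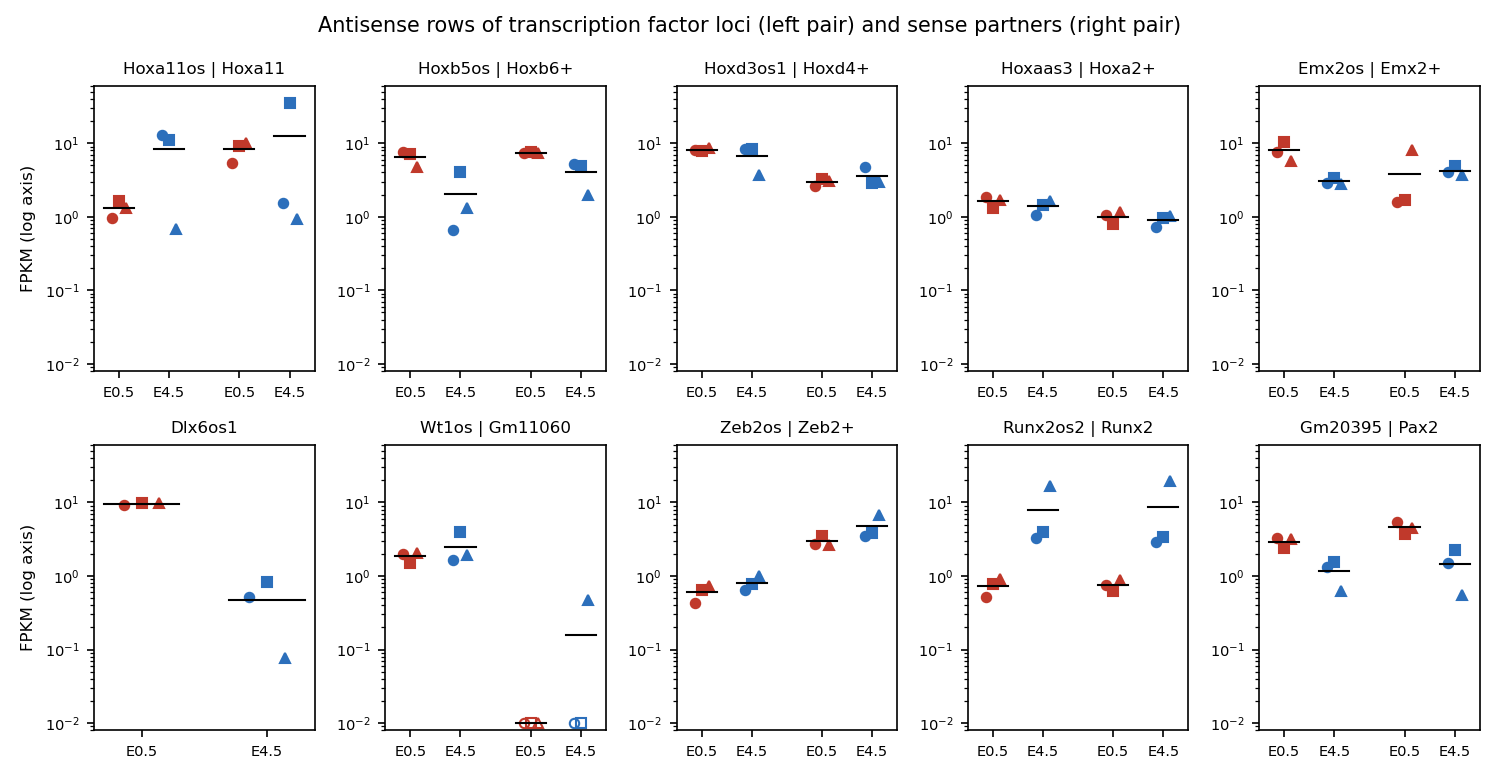
FPKM on a log axis in each E0.5 (red) and E4.5 (blue) library for antisense rows of 10 transcription factor loci (left pair of columns in each panel) and their partners (right pair). Dlx6os1 has no partner, and the partner row of Wt1os is Gm11060, not Wt1. Circles, squares and triangles are replicates 1, 2 and 3, bars are means, open symbols at the bottom are values of 0, and a plus sign marks a merged row. Hoxa11os stands at 12.9 and 11.1 FPKM in E4.5 replicates 1 and 2 and at 0.680 FPKM in replicate 3.

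At signalling loci 20 of 38 antisense rows were tested and 4 met the criterion (20%, beside 12.2% of all rows), 1 higher and 3 lower at E0.5, with a median of -0.69. None passed the adjusted p in edgeR, with 5 at an unadjusted p under 0.05 (17% of all rows). In DESeq2 3 passed it, where 9.74% of all rows did. Limma on FPKM gave 1 call, beside 12.9% of all rows. Without E4.5 replicate 3, 5 met the criterion (25%, beside 14.1% of all rows). In that edgeR fit 2 passed the adjusted p (6.08% of all rows did), and 9 of 23 partners were called (39.1%). With all libraries the partners gave 6 of 23 (26.1%) with a median of -0.53. Without E4.5 replicate 3 the medians were -0.47 for the antisense rows and -0.21 for the partners. Igf1os is head-to-head with Igf1, the insulin-like growth factor 1 gene, which the uterus makes in stroma. Igf1os stood at 0.0895, 0.225 and 0.0769 FPKM at E0.5 and at 0.660, 1.12 and 0.193 FPKM at E4.5, and the ranges overlapped. Its log2 fold change of -2.31 ± 0.77 (edgeR adjusted p = 0.204) was close to that of Igf1, -2.28 ± 0.37 (edgeR adjusted p = 0.0461), which stood at 4.89 to 5.31 FPKM at E0.5 and 13.2 to 35.5 FPKM at E4.5.

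The other 3 signalling calls had partners that did not meet the criterion. Gm17276 is tail-to-tail with Notch3, a receptor gene of vascular smooth muscle, and stood at 0.479, 0.349 and 0.553 FPKM at E0.5 and at 1.54, 0.618 and 1.11 FPKM at E4.5 (-1.24 ± 0.42). Gm10584, inside a row that merges the growth factor receptor gene Fgfr2 with Ctbp2, stood at 0.230 to 0.309 FPKM and at 0.411 to 0.811 FPKM (-1.08 ± 0.41). The Gm10584 call held in 1 of the 6 fits that left a library out. Gm17110, inside Bmpr1a, a receptor gene of bone morphogenetic proteins, was higher at E0.5, at 3.69, 3.24 and 2.67 FPKM against 1.79, 1.11 and 1.37 FPKM (1.16 ± 0.33). Partner values were -0.49 ± 0.28 for Notch3, 0.25 ± 0.22 for the Fgfr2 row and 0.31 ± 0.20 for Bmpr1a. Gm15222, inside Bmp4, had overlapping ranges (0.77 ± 0.40). 4930579J19Rik at Bmp6 and Gm26903 at Bmp5 were under the level for testing.

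At immune loci 28 of 43 antisense rows were tested and 5 met the criterion (17.9%, beside 12.2% of all rows), 3 higher and 2 lower, with a median of 0.17, and the partners gave 6 of 34 (17.6%). In 4 of the 5 the partner met it in the same direction, and Tnfsf13os was the other. Gm42809 is head-to-head with Il6ra, the interleukin 6 receptor gene, and stood at 0.281, 0.470 and 0.477 FPKM at E0.5 and at 0.132, 0.162 and 0.0853 FPKM at E4.5 (1.66 ± 0.67, edgeR adjusted p = 0.273), or 1.43 ± 0.79 and outside the criterion without E4.5 replicate 3. Il6ra was at 2.97 to 5.54 FPKM and 1.08 to 1.23 FPKM (1.92 ± 0.25, edgeR adjusted p = 0.0280). Gm11131, inside a merged row of the class I histocompatibility genes H2-Q1, H2-Q4 and H2-Q6, gave 1.07 ± 0.36 beside 1.19 ± 0.29 (0.98 and 0.96 without that library), and reads of these near-identical genes may be split between them. Gm33332, inside the cytokine receptor gene Il20ra, had no count at E0.5 and was at least 21.1-fold lower there (at least 13.5-fold without E4.5 replicate 1, which held 37 of its 64 counts), and Il20ra differed by -3.03 ± 0.88. Gm11775 encloses Cd7, a T cell and natural killer cell surface gene, and stood at 3.11 FPKM in E4.5 replicate 3 against 0.314 and 0.499 FPKM in replicates 1 and 2. Without replicate 3 its log2 fold change went from -4.46 ± 1.42 to -2.86 ± 1.65 and the criterion was not met, nor by Cd7, which went from -2.46 ± 0.82 to -1.58 ± 0.70. Without that library 3 antisense rows of immune loci met the criterion (10.7%, beside 14.1% of all rows). Of the 28 tested, 3 met it in limma on FPKM, 2 with a replicate block and 6 in DESeq2. The shares of all rows in these fits were 12.9%, 10.4% and 14.5%.

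Antisense genes named for the opposite strand (symbols ending in os, or in os and digits) were near the background. Of 261, 173 were tested and 21 met the criterion (12.1%, beside 12.2% of all rows), 10 higher and 11 lower at E0.5, with a median of -0.16, and 11 of the 18 that had a tested partner had a called partner in the same direction. Their partners gave 30 of 164 (18.3%). Without E4.5 replicate 3, 23 of these antisense rows met the criterion (13.3%, beside 14.1% of all rows), 12 higher and 11 lower. Their median was then -0.06, and it was -0.07 with upper quartile scaling. Genes of nuclear RNA decay and processing, which act on many antisense transcripts, were examined beside them. None of the 25 tested met the criterion, in edgeR, DESeq2 or limma, although 11 had an unadjusted p under 0.05 in edgeR, beside 17% of all rows, and the median was -0.43. The adjusted p was passed by none in edgeR with TMM scaling or in limma, by 1 in edgeR with upper quartile scaling and by 6 in DESeq2, where 9.74% of all rows passed it. Exosome subunits such as Exosc8 (-0.88, edgeR adjusted p = 0.0919) and the helicase gene Mtrex (-0.65, edgeR adjusted p = 0.0866) were among those 11, and the editing enzyme gene Adar stood at 0.91 (edgeR adjusted p = 0.0523). Without E4.5 replicate 3, 2 of the 25 met the criterion (8%, beside 14.1% of all rows), both lower at E0.5. In that edgeR fit 4 of the 25 passed the adjusted p, as did 6.08% of all rows.

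The ratio of antisense to sense FPKM shows whether a pair moved in proportion. At Aff3, Slc24a3, Runx2, Plet1 and Igf1 the ratios of the 2 days overlapped, as at Gm16151 with 0.422 to 0.561 at E0.5 and 0.441 to 0.579 at E4.5. For Plet1os they were 0.0764 to 0.102 and 0.0834 to 0.135, and for Runx2os2 0.676 to 1.24 and 0.844 to 1.18. Over the 62 named pairs with a ratio, many of them named for their fold changes, the days did not overlap in 16, with the ratio higher at E0.5 in 6 and lower in 10. Over all 1809 pairs with both rows tested and a partner above 0 in every library they did not overlap in 293 (16.2%). Among the 16 was Tnfsf13os, where they were 0.180 to 0.199 at E0.5 and 0.0142 to 0.0370 at E4.5, about an order of magnitude apart. At Gm48159 and Rspo3 they were 0.158 to 0.194 and 0.101 to 0.106. The ratio was also higher at E0.5 at Gm37587 and Sox17, with 0.360 to 0.453 and 0.179 to 0.297, and at Gm16141 and Meis1, with 0.810 to 1.06 and 0.450 to 0.660. At Gm15592 and Cftr the order was reversed, with 0.210 to 0.299 at E0.5 and 0.378 to 0.891 at E4.5. With 3 libraries against 3, an exact two-sided permutation test cannot go below p = 0.1, and the ratios are given without a test.

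**Figure D4:**
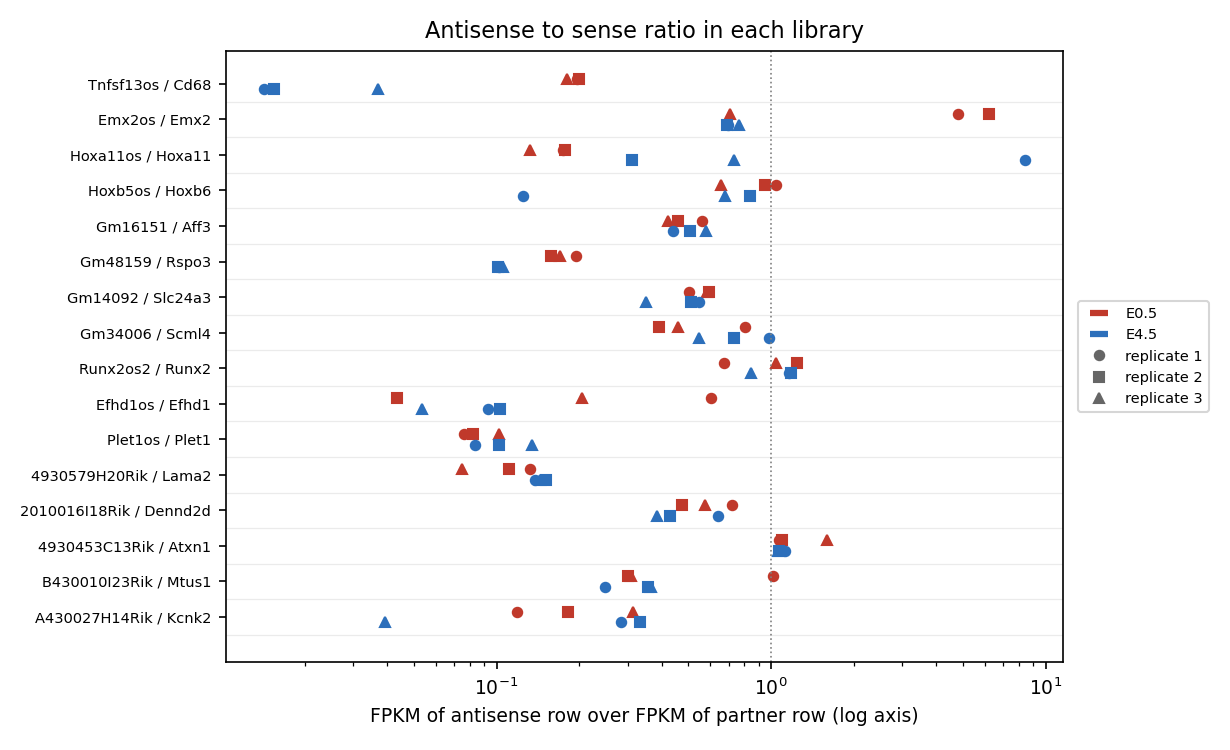
FPKM of the antisense row divided by FPKM of its partner row in each E0.5 (red) and E4.5 (blue) library, on a log axis, for 16 pairs. Circles, squares and triangles are replicates 1, 2 and 3, and the dotted line marks equal levels. Most pairs overlap between days, whereas Tnfsf13os lies at 0.180 to 0.199 at E0.5 and at 0.0142 to 0.0370 at E4.5.

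The labor comparison used FPKM in place of counts. Of the 3069 rows, 2322 shared an Ensembl transcript with a row of the labor table, 7 of them with a row that also holds protein-coding transcripts. Of 1488 tested with limma on log2(FPKM + 0.1), a scale that understates changes of low transcripts, 53 met the criterion between E15.5 and E18.5 (3.56%), 23 higher and 30 lower at E18.5. It was met by 6.05% of all 30928 rows (3.11% higher, 2.93% lower), and by 100 of 2040 partners (4.90%). The same form of fit on the implantation FPKM called 7.88% of antisense rows and 12.9% of all rows. No antisense row passed the adjusted p in limma with trend, where 101 had an unadjusted p under 0.05 beside 12.2% of all rows, and 1 passed it in limma without trend. With trend, 0.0259% of all rows passed it, 0.0194% higher and 0.00647% lower at E18.5. Dividing each library by its 75th percentile gave 20 higher and 44 lower in place of 23 and 30. Some marker sums differed between these days. Placental markers (4 genes found) summed to 3.73 to 35.2 FPKM at E15.5 and 48.8 to 68.4 at E18.5. That rise was carried by Tpbpa (1.41 to 6.20 and 31.9 to 52.7 FPKM), while Prl3b1, Prl8a9 and Psg21 overlapped between the days. Natural killer cell markers (3 genes) summed to at least 53.9 at E15.5 and at most 15.8 at E18.5. Liver and yolk sac sums (4 genes) overlapped, at 3.40 to 961 and 115 to 675. Their part in the results was not tested.

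Metallothionein antisense Gm45774 had the lowest labor p of the antisense rows named by size, which averaged at least 1 FPKM at labor. It is head-to-head with Mt2, which encodes a metal-binding protein. Gm45774 stood at 4.51, 4.58 and 3.15 FPKM at E15.5 and at 1.01, 1.18 and 0.807 FPKM at E18.5, and Mt2 at 195, 104 and 121 FPKM and at 42.4, 38.4 and 40.9 FPKM. Both were lower in every E18.5 library, by log2 fold changes of -1.92 ± 0.22 and -1.73 ± 0.24 (limma adjusted p = 0.0639 and 0.0905), and both met the criterion with each library left out. At the implantation stage neither met it with all libraries (-0.44 and -0.82), and Mt2 met it without E4.5 replicate 3 (-1.03 ± 0.39). Gm44040, inside Itpr1, the gene of a calcium release channel of the endoplasmic reticulum, stood at 5.85, 2.25 and 1.38 FPKM at E15.5 and at 0.424, 1.21 and 0.475 FPKM at E18.5 (-1.90 ± 0.58). Itpr1 was level, at 6.77 to 7.87 and 7.00 to 8.02 FPKM (0.01 ± 0.12). Gm22146 at Fkbp5, named above, was lower at E18.5 in all libraries, at 0.554 to 1.03 FPKM against 2.01 to 3.25 FPKM (-1.54 ± 0.29), beside -0.58 ± 0.22 for Fkbp5.

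Among those higher at E18.5, Gm16401 is head-to-head with Prom1, which encodes a membrane glycoprotein of epithelial protrusions. It stood at 0.280, 0.804 and 0.607 FPKM at E15.5 and at 2.59, 1.75 and 2.34 FPKM at E18.5, without overlap (1.88 ± 0.36, limma adjusted p = 0.141). Prom1 gave 1.07 ± 0.41 from overlapping ranges of 40.5 to 111 and 103 to 206 FPKM. Gm47027 lies inside Grip1, a scaffold protein gene, and exceeded its partner in each library of both stages. Its labor levels were 0.186 to 0.906 FPKM at E15.5 and 1.27 to 2.41 FPKM at E18.5 (1.46 ± 0.51), beside 1.27 ± 0.30 for Grip1. Sox5os2, inside the transcription factor gene Sox5, had the largest value among called rows averaging at least 1 FPKM at labor, 2.37 ± 0.91, which rested on 2 libraries. E15.5 replicates 1 and 2 were at 0.0621 and 0.0592 FPKM, whereas replicate 3 was at 1.70 FPKM, within the E18.5 range of 1.57 to 1.99 FPKM. It met the criterion in 1 of the 6 fits that left a library out.

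At labor the criterion was met by 3 of 39 antisense rows at transcription factor loci (7.69%; Gm20395, Hoxaas2 and Sox5os2), 1 of 12 at signalling loci (8.33%) and 4 of 23 at immune loci (17.4%), beside 6.05% of all rows. Among symbols ending in os or in os and digits it was met by 3 of 140 (2.14%). Hoxaas2, too low to be tested at the implantation stage, stood at 0.0257, 0.0913 and 0.00769 FPKM at E15.5 and at 0.288, 0.271 and 0.193 FPKM at E18.5 (1.34 ± 0.38, limma adjusted p = 0.244). Hoxa11os did not meet the criterion, with 1.63 to 4.47 and 1.24 to 2.91 FPKM (-0.41 ± 0.43), nor did Hoxa11 (-0.03 ± 0.25). In the 1391 labor pairs with both rows tested, 17 were called in the same direction and none in opposite directions, with a Spearman correlation of 0.35 across pairs.

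Calls were set side by side for the implantation and labor stages. Of 1387 antisense rows tested at both, 137 met the criterion at the implantation stage, 47 at labor and 13 at both. The 13 were 9.49% of the former and 27.7% of the latter, and 34 of the 1250 rows not called at the implantation stage (2.72%) were called at labor. The Spearman correlation of the fold changes across rows was 0.14. Only Gm20395, Gm16401 and Gm15592 met the criterion at both stages with each library left out in turn. In 11 of the 13 the signs matched, so that rows higher at E0.5 than at E4.5 were also higher at E18.5 than at E15.5, or lower at both. The tables of the stages were normalized separately, so levels were not tested across them.

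Among the rows higher at both E0.5 and E18.5 were antisense rows of Cftr, Plet1 and Prom1, which are expressed in epithelia. Gm15592, inside Cftr, the chloride channel gene of epithelial fluid secretion, stood at 2.62, 1.56 and 1.75 FPKM at E0.5 against 0.330, 0.278 and 0.849 FPKM at E4.5, and at 0.113, 0.160 and 0.198 FPKM at E15.5 and 1.55, 1.07 and 0.777 FPKM at E18.5. Its log2 fold changes were 2.04 ± 0.50 (edgeR adjusted p = 0.112) and 2.23 ± 0.33 (limma adjusted p = 0.0955), and those of Cftr 2.96 ± 0.62 and 2.11 ± 0.46. Plet1os and Plet1, described above for E0.5, differed at labor by 1.23 ± 0.33 and 1.54 ± 0.40. Gm16401 and Prom1 gave 1.56 ± 0.46 and 2.04 ± 0.71 at the implantation stage. Epithelial markers moved in the same direction, with sums of 215 to 255 FPKM at E0.5, 72.2 to 150 at E4.5, 197 to 411 at E15.5 and 593 to 819 at E18.5, and their part in these results was not tested.

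The other rows called with matching signs were Gm12146 at Atp10b (3.58 ± 1.20 and 1.01 ± 0.38), Gm15813 at Phactr1 (1.53 ± 0.30 and 1.12 ± 0.38) and Gm20395 at Pax2 (1.32 ± 0.37 and 1.32 ± 0.41), higher, and 5 rows that were lower. The labor calls of Gm12146 and Gm29050 held in 1 of the 6 fits that left a library out. Gm10369 lies inside Limk1, a kinase gene of actin regulation, and gave -4.68 ± 1.41 and -1.37 ± 0.45, where E0.5 replicate 1 was the only E0.5 library with a count and without it the row was at least 33.9-fold lower at E0.5 (against 3 counts over the group). Gm28154 at Pi15, a protease inhibitor gene, gave -1.81 ± 0.63 and -1.08 ± 0.29, beside -1.68 ± 0.60 and -1.68 ± 0.42 for Pi15. The implantation ranges of Gm28154 overlapped, and that call held in 3 of the 6 fits that left a library out. The implantation call of Pi15 held in 1 of these 6 fits. BB365896 at Fam13a gave -1.61 ± 0.55 and -1.04 ± 0.37, and did not meet the criterion without E4.5 replicate 3 (-1.21 ± 0.52). Gm29050 at Tmem242 gave -3.76 ± 1.04 and -1.45 ± 0.56 while Tmem242 stayed at 0.08 ± 0.21 and -0.04 ± 0.16. Its implantation ranges overlapped, since E4.5 replicate 2 was at 0.0603 FPKM and replicates 1 and 3 at 1.20 and 1.23 FPKM. Gm22146 was the last of the 5. Endothelial markers (2 genes) were lower in sum on the same days, at 10.3 to 12.5 FPKM at E0.5 and 16.1 to 33.5 at E4.5. At labor the sums were 119 to 148 at E15.5 and 48.5 to 78.9 at E18.5. Of the 2 genes, Pecam1 overlapped between E0.5 and E4.5 (3.88 to 5.07 and 4.55 to 7.24 FPKM), and Cdh5 did not. The part of these markers in the results was not tested.

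The 2 rows with opposite signs were 2010016I18Rik at Dennd2d and Gm42809 at Il6ra. 2010016I18Rik was higher at E0.5 and lower at E18.5, with 1.72, 1.08 and 0.713 FPKM at E15.5 and 0.554, 0.285 and 0.511 FPKM at E18.5 (-1.17 ± 0.37, limma adjusted p = 0.291). Dennd2d gave -0.65 ± 0.35 at labor. Gm42809 stood at 0.427, 0.169 and 0.215 FPKM at E15.5 and at 0.114, 0.101 and 0.0189 FPKM at E18.5 (-1.04 ± 0.43, limma adjusted p = 0.403), beside -0.63 ± 0.21 for Il6ra. Their groups did not overlap at either stage. Of the 6 fits per stage that left a library out, the Gm42809 call held in 1 at the implantation stage and 2 at labor. For 2010016I18Rik it held in 6 and 4.

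**Figure D5:**
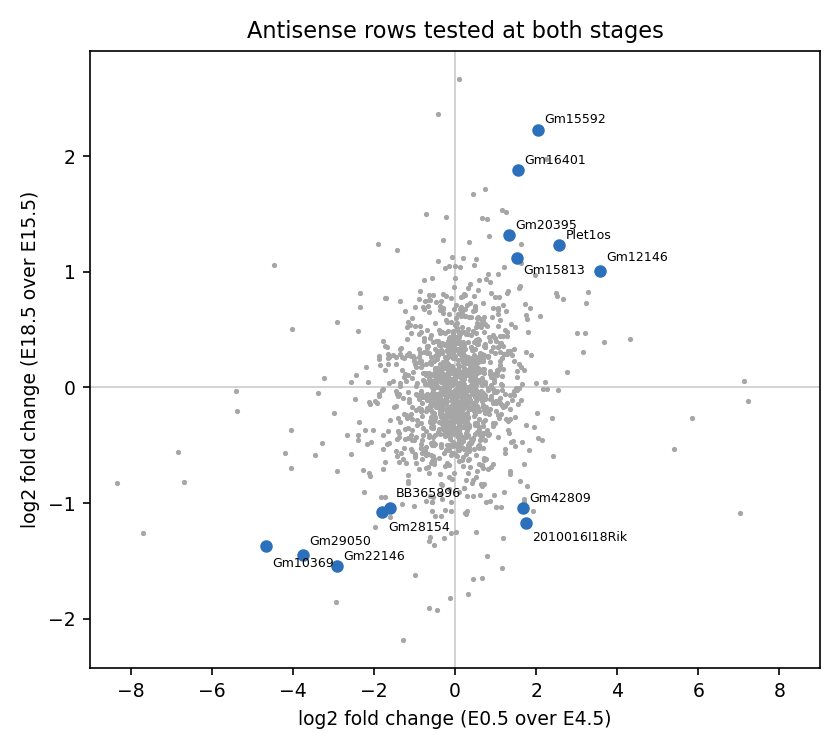
Log2 fold change E0.5 over E4.5 (x axis) and E18.5 over E15.5 (y axis, on the log2(FPKM + 0.1) scale) for 1387 antisense rows tested at both stages. Blue points with names are the 13 rows that met the criterion at both, of which 11 lie in the quadrants of matching sign and 2, 2010016I18Rik and Gm42809, in the lower right quadrant.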

How the data were processed

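RNA from whole uteri of 12 ICR mice, 3 per group, was sequenced, and groups and replicate numbers were taken from the labels. Per the study's methods, Cutadapt trimmed the reads, Tophat2 with Bowtie2 aligned them, and StringTie and Ballgown gave transcripts and their levels. The submitters' processing notes list Bowtie 0.12.2, HISAT2 2.0, StringTie 1.3.0 and the builds mm8 and mm10. The labels name poly(A) selection and NovaSeq, the methods rRNA depletion and HiSeq, and this was not resolved. The FPKM values of both stages were made by the authors, each stage separately. The counts of the implantation stage are whole numbers deposited by the authors, and the assignment of reads to rows, including strand, is not given in the sources used here. A floor value in place of 0 in that FPKM table was set back to 0. Coordinates were read as GRCm38, since 1504 of 1512 antisense rows whose symbol is in the RefSeq table of GRCm38 overlap that gene. Columns of the authors' own comparisons were not used.

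Counts were tested with edgeR's quasi-likelihood test (TMM scaling) over all 59732 rows averaging 0.1 FPKM or more, and labor values with limma trend on log2(FPKM + 0.1) over 30928 of 40787 rows, with Benjamini-Hochberg adjustment over all rows. Both steps were tested on simulated data. Labor rows were matched by shared Ensembl transcripts. With 3 mice per group, p-values measure the spread between these mice. Named antisense rows were those past the adjusted p, the 5 largest changes per direction with at least 1 FPKM, the criterion met and no overlap, the 5 most abundant, the pairs called in the same direction (5 by size) or in opposite directions, the 3 largest labor changes per direction with at least 1 FPKM at labor and no merged protein-coding transcripts, all called at both stages, and a set of reproductive tract loci, each with its partner. Called members of the locus lists were named as well. Lists went by the partner's symbol, with a digit required after the prefixes Il and Cd, or, for opposite-strand symbols, by an antisense symbol ending in os or in os and digits. Members and lists were chosen with earlier results of these data known. Alternatives were RLE and upper quartile scaling, DESeq2, limma on FPKM, other filters and pseudocounts, a replicate block, minimum overlap, rows that name 1 gene only, and leaving out each library. Replicate numbers did not pair the samples. R 4.3.3, edgeR 4.0.16, limma 3.58.1, DESeq2 1.42.0, Python 3.11.15, pandas 2.3.3 and NumPy 2.4.6 were used.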

Additional observations from a re-analysis of the deposited data

Results flagged for a closer look

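In 4 of the named antisense rows every library of a group lay apart from the other group at both stages, in opposite directions. The log2 fold changes, E0.5 over E4.5 and then E18.5 over E15.5, were 1.69 and -0.99 for Gm13713 (Lrrc55), 1.66 and -1.04 for Gm42809 (Il6ra), 1.75 and -1.17 for 2010016I18Rik (Dennd2d), and 1.66 and -0.47 for Gm20033 (Klf3). Over all 1387 antisense rows tested at both stages, 61 had no overlap at either stage, 23 of them in opposite directions and 38 in the same direction. Of all rows tested, 25.2% had no overlap at the implantation stage and 19.9% at labor. The share without overlap at both was not counted over all rows. The difference between the stages was not tested, because the tables were normalized separately. The labor values of Gm13713 and Gm20033 did not meet the criterion.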

How the results depend on the processing

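Of 2223 log2 fold changes of named antisense rows and partners under alternatives, 1960 kept their direction and side of the criterion, 47 changed sign without meeting it in either fit, 191 no longer met it and 24 came to meet it. Hoxa11 met it in the other direction without E4.5 replicate 2, at 2.72 in place of -0.58 (-1.14 to 2.72 with a library left out). The 10 antisense rows past the adjusted p became 131 in DESeq2 (6.75%, beside 9.74% over the whole table) and 21 where the mean had to reach 1 FPKM. With a library left out they became 0 to 73, 73 being without E4.5 replicate 3. Over the whole table the 730 rows past it became 0 to 3629 with a library left out, 3629 being without E4.5 replicate 3. DESeq2 called 222 by the criterion, 188 of them among the 191, beside 14.5% of all rows. A mean of at least 1 FPKM tests fewer rows and gave 81 by the criterion, 42 pairs called in the same direction and 0 in opposite directions. Leaving out a library gave 141 to 202 by the criterion and 0 to 3 opposite pairs, and limma on FPKM 1 opposite pair. Upper quartile scaling gave 117 higher and 74 lower in place of 102 and 89. At labor the 53 antisense calls became 11 with a mean of at least 1 FPKM and 4 with a pseudocount of 1, and the 100 partner calls 58 and 36, or 66 to 149 with a library left out. The cause of these shifts was not tested. The labor depth is unknown.

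Replicate numbers did not pair the samples, with correlations of deviations between same-numbered libraries of -0.0826, 0.021 and -0.0723 at the implantation stage and 0.017, 0.00069 and -0.0485 at labor. The replicate block gave 0 antisense rows past the adjusted p (0 of all rows), 94 higher and 57 lower by the criterion, 83 pairs in the same direction and 0 in opposite directions, and 50 antisense rows and 89 partners at labor.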
